A study of Mus musculus with 2 samples.

Results

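The 10 genes described here, Ryr1, Cacna1s, Cacnb1, Cacna2d1, Jph1, Jph2, Trdn, Asph, Casq1 and Casq2, encode the core proteins of the skeletal muscle triad, where excitation is turned into calcium release. They are given by name, out of 22380 annotated protein-coding genes. Mbnl2 tags on the strand of each gene were counted in the quadriceps of WT and of Mbnl1 KO mice, and each tag was placed in the 3'UTR, a coding exon, the 5'UTR, another exon or an intron. The tags came from HITS-CLIP, in which UV light fixes a protein to bound RNA inside the tissue, RNase A cuts the RNA short, an antibody pulls the protein down and the RNA pieces still attached are sequenced. The question behind the comparison was whether Mbnl2 contacts muscle RNAs more when its paralogue Mbnl1 is missing.

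Both groups are adult mice of 15 to 16 weeks with the label strain C57BL/6, and the study's methods name a mixed C57BL/129 background for its compound knockouts. The WT mice carry no engineered allele, and the Mbnl1-/- mice are homozygous for a constitutive Mbnl1 allele named for a deletion of exon 3 (ΔE3), so that every cell type of the muscle lacks the same exon. Muscle was frozen, powdered and crosslinked, and Mbnl2 was pulled down with the antibody mAb 3B4 after RNase A at 38.6 or 0.0386 U/ml, which the tables do not tell apart. The 3 mice of a genotype were pooled into 1 table, which leaves no measure of how mice differ and allows no test of the genotypes, and every interval below is an exact 95% Clopper-Pearson interval that covers counting error only and compares the tables, not the genotypes.

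The triad is the place where a transverse tubule, an inward fold of the surface membrane, lies against the sarcoplasmic reticulum, the calcium store of the fibre. A voltage sensor in the tubule, the dihydropyridine receptor, opens the ryanodine receptor of the reticulum, junctophilins hold both membranes together, and triadin, junctin and calsequestrin form the luminal complex that keeps calcium near the release channel. Mbnl proteins regulate splicing in introns near alternative exons and also bind 3'UTRs, with a preference for the 4-letter motif YGCY, where Y is C or T in the DNA letters used here. In myotonic dystrophy they are sequestered by expanded repeat RNAs, and splicing of Ryr1 and Cacna1s is among what is then altered.

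Depth differed, with 343554 WT tags resting on 5176203 reads and 476543 Mbnl1 KO tags on 50329234. Tags whose genomic sequence was at least 70% a single base were 44.05% of all tags in WT against 17.0% in Mbnl1 KO, and tags of 1 read were 79.0% and 59.5%. Among the 3888 protein-coding genes that reached 20 tags over both tables, the median Mbnl1 KO/WT ratio of tags per 1000000 was 1.75 (0.80 on the log2 scale), so ratios are also given relative to this median gene. All 10 marker genes of skeletal muscle fibres carried tags, 904 in WT and 3314 in Mbnl1 KO (2631 and 6954 per 1000000), with at least 12 and 47 for each gene. The 6 cardiac markers carried 29 and 30 tags, mostly at Ryr2. Nppa was at 0 in both tables, and Mybpc3, Tnni3 and Tnnt2 were at 0 in Mbnl1 KO. The 4 endothelial and fibroblast markers carried 158 and 559 tags (460 and 1173 per 1000000), of which the highest single gene held 123 and 471. The 5 blood and macrophage markers carried 14 and 16 (Cd68 and Lyz2 at 0 in WT). RNA levels were not analysed here, so more contact per RNA cannot be told apart from more RNA, and fewer cells of a type cannot be told apart from less RNA per cell. The part of these differences in the ratios below was not tested beyond the alternatives given with them. The start-codon exon of Mbnl1 (chr3:60332678-60333726), which may not be the deleted exon, held 5 WT and 2 Mbnl1 KO tags (ratio 0.288, 0.0275 to 1.76), too few to check the genotype.

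Sequences under some of the contacts are shown first, because the results below return to them. Each is the 30-base window of highest tag coverage in a cluster, which is a run of overlapping tags with at least 5 tags over both tables, read from mm9 on the strand of the gene from 5′ to 3′. Capitals mark TGCT with any mix of C and T at its first and last place (YGCY), searched on the strand of the gene only and allowed to overlap.
The first 9 are from the 12 clusters with the most tags, and the last 2, of Ryr1 intron 87 and Trdn intron 23, are from smaller clusters picked for their motifs after their values were seen, so these windows do not stand for the motif content of the contacts.
Trdn intron 21, all 22 tags of the cluster, chr10:33084997-33085026, plus strand: gaactTGCTtTGCTttttgtTGCTtgtttg
Trdn intron 21, neighbouring cluster, chr10:33085050-33085079, plus strand: aTGCCaggcaaatagcgcaaaattaagcaa
Casq1 3'UTR, chr1:174140237-174140266, minus strand: ttctctcatctgactTGCTtcttcccccat
Cacna2d1 3'UTR, chr5:15877383-15877412, plus strand: tcttttgcatgaTGCTGCTGCTattttaac
Ryr1 intron 70, chr7:29841204-29841233, minus strand: ccttctgcatggcttttggctaacaccttt
Asph internal 3'UTR, chr4:9548777-9548806, minus strand: tatTGCTatgtgcgtagtgtgaattgtaat
Asph internal 3'UTR, second site, chr4:9548224-9548253, minus strand: gtggtggttagctggcttccattcttatgt
Cacna2d1 3'UTR, second site, chr5:15878630-15878659, plus strand: ggctattttaaatcatgcacatgttgaaga
Trdn intron 1, chr10:32836144-32836173, plus strand: aaaaaaaaaaaaagatatcctccagatcca
Ryr1 intron 87, chr7:29824893-29824922, minus strand: attttgTGCTtcTGCTtggtCGCCttagtc
Trdn intron 23, chr10:33136358-33136387, plus strand: gcTGCTGCTTGCTGCTgtgcagctgttgtt
Of all 30-base windows in the introns of the 10 genes, 22.8% held at least 1 such motif and 3.27% at least 2, and in their exons 33.7% and 8.14%. Of the windows of the 12 largest clusters, 8 held at least 1 motif, 2 held at least 3 (Trdn intron 21 and Cacna2d1) and 4 held 0 (Cacna2d1, Asph, Ryr1 intron 70 and Trdn intron 1).

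Together the 10 genes held 248 tags in WT and 848 in Mbnl1 KO, a summed ratio of 2.47 (2.14 to 2.85) and of 1.41 relative to the median gene. Trdn supplied 20.2% of the WT and 29.5% of the Mbnl1 KO tags, and without it the ratio was 2.18 (1.85 to 2.57). Of the 9 genes that reached 20 tags, 5 were at least 2-fold higher in the Mbnl1 KO table (Trdn, Casq1, Jph1, Asph and Ryr1), where 41.6% of all genes tested were. None was at or below 0.5, where 3.76% of all genes were. Intervals lay above 1 for 6 of 9, the same 5 genes and Cacna2d1, against 38.6% of all genes, and below 1 for 0 of 9, against 3.83%. The ratio itself was above 1 in 8 of 9, against 79.9%. The median ratio of the 9 was 2.36, beside 1.75 over all genes. With tags of at least 2 reads the order turned, with a median of 1.34 over the members and 1.49 over all genes, and with single-base tags also left out the medians were 1.17 and 1.33. The median of the members stayed above that of all genes with single-base tags alone left out (1.63 and 1.48), with tags collapsed by position (2.05 and 1.56) or by 5′ end (2.02 and 1.59) and for tags of at most 30 nt (1.504 and 1.323). The counts of the list are a little above the background shares, and they depend on the scaling, since relative to the median gene only Trdn stayed at least 2-fold higher and only Trdn and Casq1 kept an interval above 1 (13.7% and 11.8% of all genes). With tags of at least 2 reads, 7 of the genes reached 20 tags and the interval of Trdn alone lay above 1, beside 18.7% of all genes, while those of Ryr1, Cacna2d1, Jph1, Asph and Casq1 included 1.

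**Figure D1:**
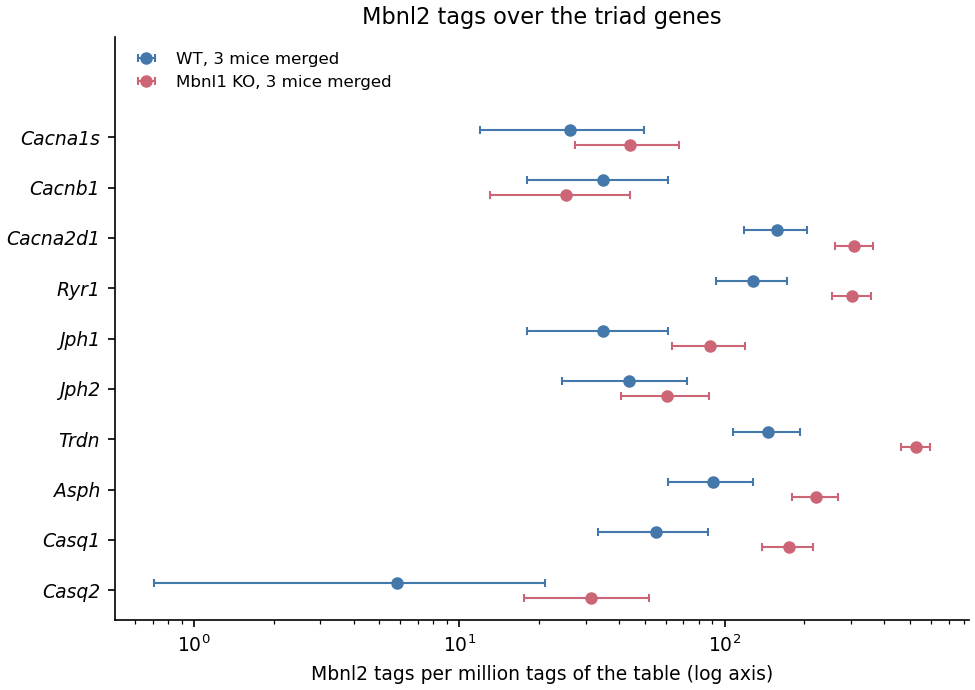
Mbnl2 tags per 1000000 tags of the table (log axis) at each of the 10 genes, ordered by role, in WT and Mbnl1 KO muscle, with exact 95% counting intervals. The intervals of the tables do not overlap at Cacna2d1, Ryr1, Jph1, Trdn, Asph and Casq1. Cacnb1 is the single gene with a lower Mbnl1 KO value at this scaling, and Cacna1s and Jph2 also fall below 1 when the ratio is taken relative to the median gene.

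The voltage sensor genes differed among themselves. Cacna1s encodes the pore-forming and voltage-sensing α1S subunit (67073 nt of gene, chromosome 1) and held only 9 WT and 21 Mbnl1 KO tags. Its ratio of 1.68 (0.739 to 4.17) included 1 and was 0.964 relative to the median gene. Of its 30 tags, 80.0% were intronic, in 14 of 45 introns, and intron 29 carried the most, 1 in WT and 5 in Mbnl1 KO. No tag fell in its 3'UTR of 695 nt. The 57-nt exon 29 (chr1:138001147-138001203), which 4 of 7 annotated coding transcripts that span it skip and which lengthens a loop beside the voltage sensor of the fourth repeat, held no tag. Its 500 nt on both sides held 1 tag in each table. The neighbouring exon 30, skipped in 1 of 7 transcripts, had 3 WT and 5 Mbnl1 KO tags within 500 nt, of which all 5 Mbnl1 KO tags and 1 WT tag lay upstream (ratio 1.20, 0.234 to 7.74). Those upstream tags are all the tags of intron 29, which joins both exons, and the 1 tag of each table counted at exon 29 is among them. Contact within 500 nt of the Cacna1s alternative exon 29 was therefore at the limit of detection in both genotypes at this depth.

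Cacnb1, whose β1 subunit places the α1S subunit in the triad, held 12 tags in each table (34.9 and 25.2 per 1000000). Its ratio of 0.721 (0.296 to 1.75) was the lowest of the 9, 0.413 relative to the median gene, and ranked at percentile 8.98 among all genes. The 3'UTRs held 5 and 5 of these tags and the introns 7 and 7. Intron 13 of the reference transcript, which contains the 277 nt of an internal 3'UTR with 1 of the WT tags, held 7 and 3. Of the settings run, its interval was below 1 for tags of at most 30 nt (0.297, 0.0797 to 0.954) and included 1 in the others.

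Cacna2d1, the extracellular α2δ1 subunit, held 54 WT and 147 Mbnl1 KO tags, which are 157 and 308 per 1000000. The ratio was 1.96 (1.43 to 2.73), or 1.12 (0.818 to 1.57) relative to the median gene, which is close to the median gene. It is the longest gene of the list (439821 nt) and its tags were split between introns and the last exon. The introns held 35 and 76 tags (ratio 1.57, 1.04 to 2.41), of which intron 3 (137127 nt) had 9 and 23. The last 3'UTR (chr5:15876490-15880329, 3840 nt) held 17 and 62 tags, a ratio of 2.63 (1.52 to 4.80). The interval included 1 relative to the median gene (1.51, 0.870 to 2.75), for tags of at least 2 reads (1.49, 0.781 to 3.09) and with single-base tags also left out (1.25, 0.656 to 2.59). It also included 1 for tags of at most 30 nt (1.60, 0.826 to 3.30). Single sites in that 3'UTR varied. The cluster with the 3 overlapping TGCT copies shown above (chr5:15877378-15877412) held 5 WT and 7 Mbnl1 KO tags, and that at chr5:15878575-15878663 held 5 and 9. Clusters at chr5:15879105-15879168, chr5:15877934-15877982 and chr5:15878697-15878733 held 0 WT and 6, 5 and 5 Mbnl1 KO tags. The antisense strand of Cacna2d1 held 20 and 23 tags.

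Ryr1 encodes the calcium release channel. Its 44 WT and 144 Mbnl1 KO tags are 128 and 302 per 1000000, and the ratio of 2.36 (1.67 to 3.39) was 1.35 (0.958 to 1.94) relative to the median gene, at percentile 68.3. Introns held 75.0% of the tags, with 31 in WT and 110 in Mbnl1 KO (2.56, 1.70 to 3.94), and coding exons held 11 and 30 (1.97, 0.958 to 4.35). The tags were spread over 39 of 105 introns and 25 of 106 exons, so no single site made up the gene's total. Intron 70 (1174 nt) carried the most, 5 WT and 17 Mbnl1 KO tags. Intron 87 (1959 nt) followed with 2 and 11, and intron 89 (11635 nt) with 5 and 7. A further cluster in intron 103 (chr7:29789670-29789725), which is only 257 nt long, held 0 WT and 6 Mbnl1 KO tags.

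Intron 70 lies directly after the 15-nt exon 70 (chr7:29841253-29841267, minus strand), and exon 70 and the 18-nt exon 83 (chr7:29829938-29829955) are the short Ryr1 exons known to be alternatively spliced as muscle matures. The annotation holds 1 coding Ryr1 transcript over these exons and includes both. No tag overlapped exon 70 and none lay in the 500 nt upstream, while the 500 nt downstream held 4 WT and 12 Mbnl1 KO tags (ratio 2.16, 0.655 to 9.20). Of these, 2 WT and 10 Mbnl1 KO tags formed the cluster at chr7:29841179-29841236, which begins 16 nt past the exon. The 2 WT tags of the cluster began 16 and 22 nt past the exon, at positions where Mbnl1 KO tags also began. The densest 30 bases of that cluster, shown above, contain no YGCY. Exon 83 was likewise free of tags. Its flanks held 2 WT and 8 Mbnl1 KO tags (2.88, 0.575 to 27.9), and 1 WT and 1 Mbnl1 KO tag of 22 nt each began 1 nt past its end. The asymmetry at exon 70 was seen in both tables, while the Mbnl1 KO/WT ratios at both exons include 1.

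**Figure D2:**
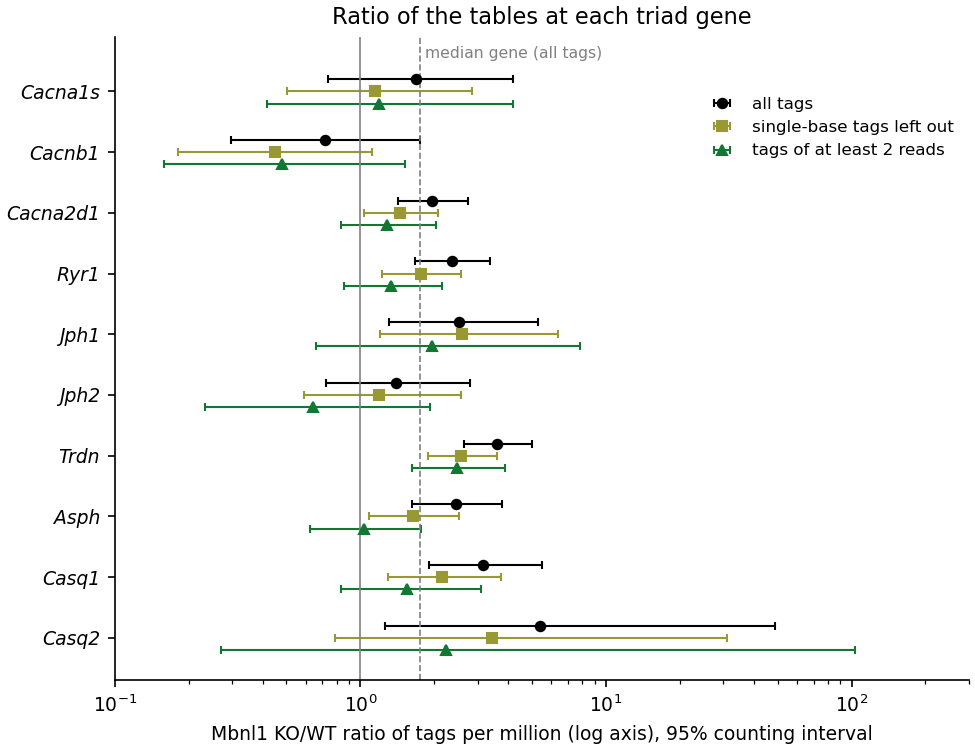
Mbnl1 KO/WT ratio of tags per 1000000 at each gene (log axis) with exact 95% counting intervals, for all tags, with single-base tags left out and for tags of at least 2 reads. The solid line is a ratio of 1 and the dashed line the median gene at 1.75 with all tags. Trdn lies above 1 with its whole interval in all 3 settings, Cacnb1 lies below 1, and Jph2 changes side when tags of 1 read are left out. Each setting is divided by the tags it keeps in each table, and the dashed line applies to all tags only.

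Junctophilins, which bridge the tubule and the reticulum, carried fewer tags than Ryr1 or Trdn. Jph1, the skeletal muscle form, held 12 WT and 42 Mbnl1 KO tags, all of them intronic, with 11 and 34 in intron 2 (75140 nt). The ratio was 2.52 (1.30 to 5.27) and 1.45 (0.747 to 3.02) relative to the median gene. Its antisense strand held 14 WT and 8 Mbnl1 KO tags, so that in WT the antisense tags were slightly more than the sense tags. The 42 Mbnl1 KO tags included clusters of 5 at chr1:17016953-17016985 and at chr1:17050925-17050957, both with 0 WT tags. The annotated 3'UTR of Jph1 is only 18 nt, and the 3 kb past the annotated end, which hold no other gene on this strand, had 6 WT and 19 Mbnl1 KO tags. Over 10 kb past the end the numbers were 6 and 21 (ratio 2.52, 0.985 to 7.64), the same ratio as in the gene body. Jph2, the form shared with heart, held 15 and 29 tags with a ratio of 1.39 (0.723 to 2.80), or 0.799 relative to the median gene. For tags of at least 2 reads it was 0.640 (0.232 to 1.92), and with single-base tags also left out 0.627 (0.218 to 2.04). Its introns held 11 and 17 tags, and its last exon of 1683 nt, all 3'UTR, held 3 and 8.

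Trdn had the highest ratio of the 9 genes with enough tags and the most Mbnl1 KO tags. The gene encodes triadin, the reticulum membrane protein that ties calsequestrin to the release channel. It held 50 WT and 250 Mbnl1 KO tags, 146 and 525 per 1000000, whose intervals (108 to 192 and 462 to 594) are far apart. The ratio of 3.60 (2.65 to 4.99) was 2.07 (1.52 to 2.86) relative to the median gene and ranked at percentile 86.8. Introns held 95.7% of its tags, 47 in WT and 240 in Mbnl1 KO (3.68, 2.68 to 5.15). The coding exons held 3 and 8 and the last 3'UTR of 2194 nt held 0 and 2.

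More of the Trdn tags lay in intron 21 than in the rest of the gene in the Mbnl1 KO table. This intron of 34358 nt held 19 WT and 142 Mbnl1 KO tags (5.39, 3.33 to 9.21), which are 38.0% and 56.8% of the gene's tags in 8.74% of its length. Within it, a stretch of 3859 nt (chr10:33084053-33087911) that starts 224 nt after the upstream exon and ends 30275 nt before the next held 15 and 132 tags. This stretch was delimited after the tags were seen, from the first to the last cluster in the intron, so its values are a description. They were 30% of the WT and 52.8% of the Mbnl1 KO tags of Trdn in 0.981% of its length, a ratio of 6.34 (3.71 to 11.7) and of 3.63 (2.13 to 6.68) relative to the median gene. Per length, the stretch reached 11.3 tags per kb per 1000000 in WT and 71.8 in Mbnl1 KO. It overlaps no annotated exon and holds 11 clusters, and none of its tags was a single-base tag. The Mbnl1 KO tags took 79 distinct positions and the WT tags 15, and with tags of the same position and strand collapsed the ratio was 4.11 (2.34 to 7.68). With tags of at least 2 reads it was 4.02 (2.03 to 9.06), and with single-base tags also left out 3.38 (1.71 to 7.61).

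**Figure D3:**
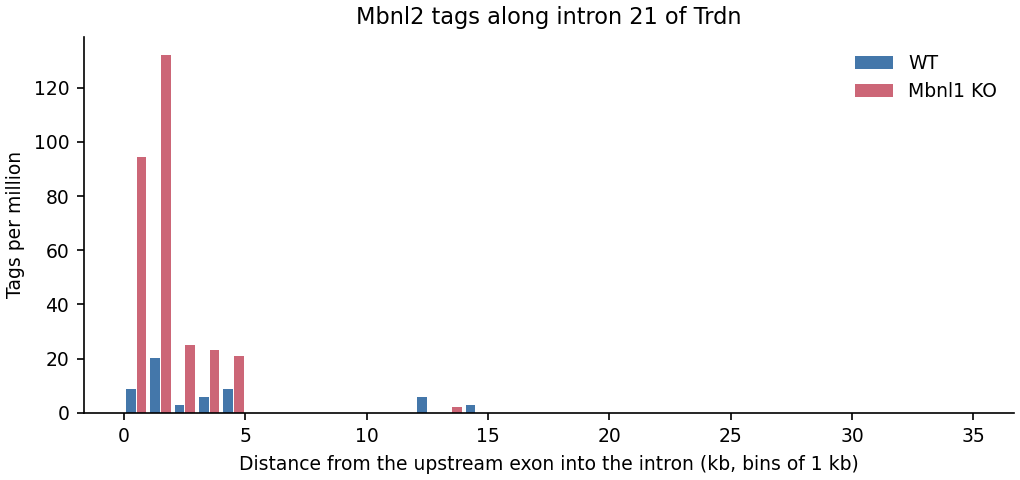
Mbnl2 tags per 1000000 in bins of 1 kb along intron 21 of Trdn, from the upstream exon, in WT and Mbnl1 KO muscle. In both tables most tags of the intron lie in the first bins, where the dense stretch of 15 WT and 132 Mbnl1 KO tags begins 224 nt past the exon, and the rest of the 34358-nt intron is nearly empty.

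The densest clusters of the stretch lay side by side. The cluster at chr10:33084993-33085032 held 2 WT and 20 Mbnl1 KO tags (7.21), all 22 of which covered its densest base, over 3 TGCT copies. The cluster at chr10:33085034-33085114 held 2 and 24 tags (8.65, 2.15 to 75.5). Clusters at chr10:33084944-33084987 and chr10:33084531-33084565 held 0 WT and 10 and 9 Mbnl1 KO tags, and that nearest the exon (chr10:33084053-33084136) held 2 and 10. Motifs were not dense in the stretch as a whole, where 17.5% of 30-base windows held at least 1 and 1.61% at least 2. Outside the stretch, Trdn held 35 WT and 118 Mbnl1 KO tags with a ratio of 2.43 (1.65 to 3.65), close to those of Ryr1 and Asph. There, intron 1 held a cluster with 0 WT and 12 Mbnl1 KO tags (chr10:32836139-32836175). The motif-rich window of intron 23 shown above, with 4 TGCT copies, belonged to a cluster of 1 WT and 5 Mbnl1 KO tags.

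Asph encodes, from 1 gene, the reticulum proteins junctin and junctate and the enzyme aspartyl β-hydroxylase. Its 31 WT tags stood against 105 in Mbnl1 KO, with a ratio of 2.44 (1.62 to 3.77) and of 1.40 (0.929 to 2.16) relative to the median gene. Its 3'UTR tags did not lie at the end of the full-length transcript. The last 3'UTR (4367 nt) held 1 WT and 3 Mbnl1 KO tags, whereas an internal 3'UTR of 975 nt (chr4:9548055-9549029), in which 3 short annotated transcripts end, held 11 and 42 (2.75, 1.39 to 5.93). In the longest coding transcript, which was taken as the reference, this block is part of intron 3, and that intron held 21 WT and 70 Mbnl1 KO of the tags of Asph. The block contained clusters of 4 WT and 8 Mbnl1 KO tags at chr4:9548761-9548809 and at chr4:9548219-9548253, and one of 0 and 12 at chr4:9548860-9548965. The first pair of clusters held tags of both tables, and the last held Mbnl1 KO tags only. Tags of at least 2 reads, divided by all such tags of each table, gave a ratio of 1.04 (0.626 to 1.77) at the gene. At the internal 3'UTR it was 1.04 (0.468 to 2.52), so at that scaling no difference was detectable. Tags of 1 read were 9 of the 31 WT and 44 of the 105 Mbnl1 KO tags of Asph, beside 79.0% and 59.5% of all tags. Past the annotated end of Asph, a cluster of 9 WT and 0 Mbnl1 KO tags (chr4:9372614-9372653) consisted of single-base tags alone, and it is not counted in the gene.

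The calsequestrins buffer calcium in the reticulum. Casq1, the main form of fast fibres, is the shortest gene of the list (10002 nt) and held 19 WT and 83 Mbnl1 KO tags, 55.3 and 174 per 1000000, with a ratio of 3.15 (1.90 to 5.49). Relative to the median gene this was 1.80 (1.09 to 3.15). In contrast to Trdn, 84.3% of its tags lay in the 3'UTR (chr1:174140025-174140478, 454 nt), 16 in WT and 70 in Mbnl1 KO (3.15, 1.81 to 5.82), and introns held 1 in each table. For tags of at least 2 reads this 3'UTR ratio was 1.53 (0.778 to 3.27), and with single-base tags also left out 1.28 (0.653 to 2.75). For tags of at most 30 nt it was 1.74 (0.905 to 3.55). A single cluster of 192 nt (chr1:174140173-174140364) held 13 and 49 tags at 30 distinct 5′ ends, the largest cluster of all 10 genes, with 28 tags over the window shown above. The next cluster (chr1:174140366-174140441) held 2 and 11, over a window with 2 TGCC copies. The coding exons of Casq1 held 0 WT and 12 Mbnl1 KO tags, for which the exact interval of the ratio begins at 2.0. These 12 tags are below the 20 required, and over all genes with enough coding exon tags the median ratio was 3.46. Casq2, the form of cardiac and slow muscle, held 2 WT and 15 Mbnl1 KO tags. Its 17 tags were below the 20 required, and its ratio of 5.41 has an interval of 1.26 to 48.7. Its 3'UTR held 0 WT and 5 Mbnl1 KO tags, all in 1 cluster (chr3:101950281-101950314).

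**Figure D4:**
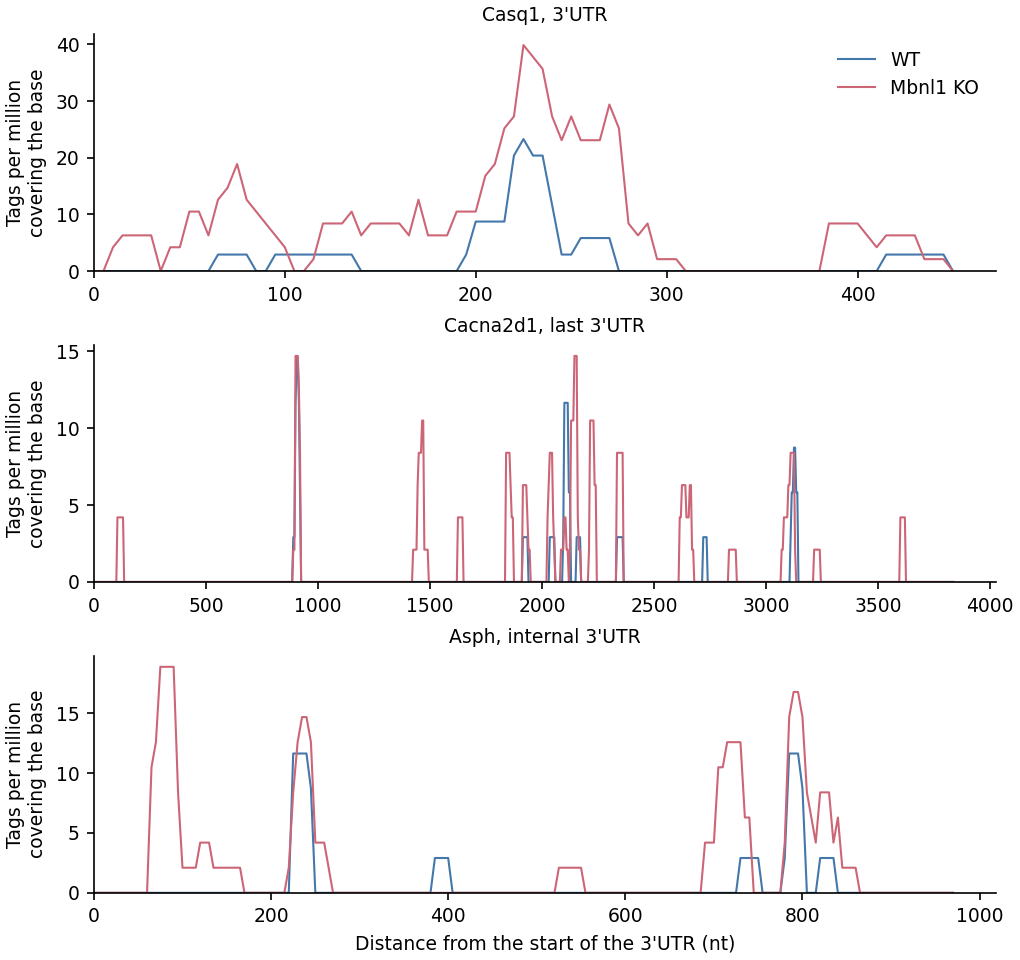
Tags per 1000000 covering each base, read every 5 nt, along the 3'UTR of Casq1 (454 nt), the last 3'UTR of Cacna2d1 (3840 nt) and the internal 3'UTR of Asph (975 nt), from the 5′ side, in WT and Mbnl1 KO muscle. The main Casq1 cluster (13 WT and 49 Mbnl1 KO tags) is seen in both tables, Cacna2d1 shows many narrow sites, and 1 Asph site has 0 WT and 12 Mbnl1 KO tags.

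Tag densities were compared between genes per length. In exons, Casq1 was first in both tables, with 26.5 tags per kb per 1000000 in WT (15.7 to 41.9) and 87.0 in Mbnl1 KO (69.2 to 108). Cacna2d1 came next with 6.59 (3.97 to 10.3) and 17.8 (13.9 to 22.4), apart from Casq1 by more than the intervals. In WT the exonic densities of the other genes with exonic tags, from 3.21 at Cacnb1 to 1.33 at Cacna1s, did not differ beyond their intervals. In Mbnl1 KO the third was Asph at 6.90 (5.17 to 9.03), followed without a gap beyond the intervals by Casq2, Jph2, Ryr1 and Trdn (6.14 to 4.56), then Cacnb1 at 2.32 and Cacna1s at 0.961. Jph1 had no exonic tag in either table. In introns, Ryr1 was first in Mbnl1 KO with 2.17 tags per kb per 1000000 (1.78 to 2.61), above Trdn with 1.30 (1.14 to 1.47), and Jph1 followed at 0.898 (0.647 to 1.21), whose interval overlaps that of Trdn. In WT, Cacnb1 at 1.20 (0.482 to 2.47) and Ryr1 at 0.848 (0.576 to 1.20) led and overlapped.

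The classes of the tags set the triad genes beside other genes. Introns held 68.1% of the WT tags of the 10 genes (62.0 to 73.9) and 67.2% of those in Mbnl1 KO (63.9 to 70.4), whereas over all genes tested the intronic share was 75.1% in WT and 56.95% in Mbnl1 KO. The 3'UTR share was 23.0% and 24.2%, beside 18% and 32.4% over all genes, and coding exons held 8.06% and 8.14%, beside 5.60% and 9.30%. Without Trdn the intronic share was 61.6% in WT (54.5 to 68.4) and 55.2% in Mbnl1 KO (51.1 to 59.2) and the 3'UTR share 28.8% (22.6 to 35.6) and 33.9% (30.2 to 37.9), with overlapping intervals.

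**Figure D5:**
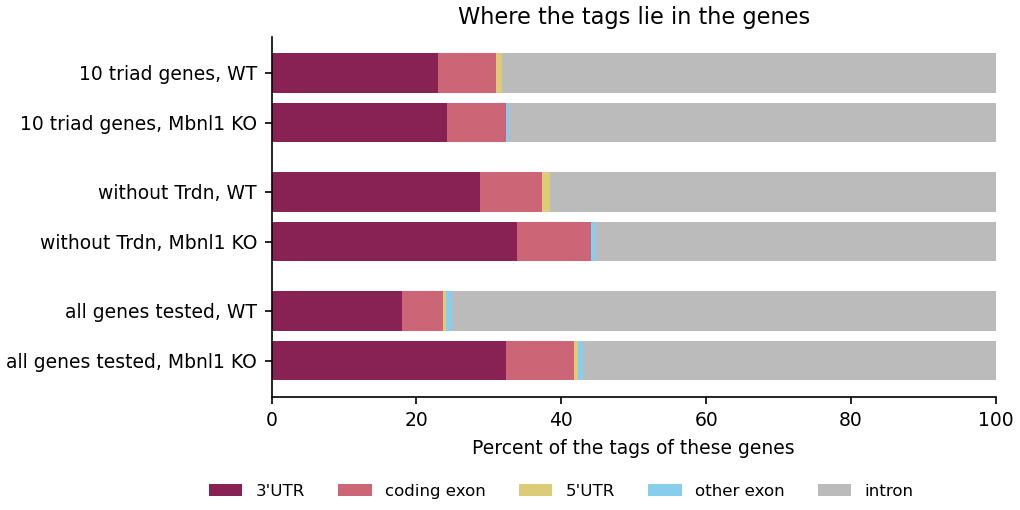
Percent of tags in the 3'UTR, coding exons, 5'UTR, other exons and introns, for the 10 triad genes, the list without Trdn and all protein-coding genes with at least 20 tags, in each table. The intronic share of the 10 genes is 68.1% in WT and 67.2% in Mbnl1 KO, while that of all genes is 75.1% and 56.95%.

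By class, the summed ratio was 2.59 (1.92 to 3.54) for 3'UTR tags (57 WT, 205 Mbnl1 KO), 2.49 (1.49 to 4.32) for coding exon tags (20 and 69) and 2.43 (2.04 to 2.90) for intron tags (169 and 570). In 5'UTRs there were 2 tags in WT and none in Mbnl1 KO, and in other exons 0 and 4. With tags of at least 2 reads the 3'UTR ratio was 1.27 (0.888 to 1.84) and the coding exon ratio 1.23 (0.663 to 2.42), both with 1 in the interval, and the intron ratio was 1.59 (1.25 to 2.04). The all-tag ratios were alike, but the background of each class was not. Of the genes with at least 20 intron tags, 22.0% had an intron ratio of at least 2 and 19.7% an interval above 1, with a median of 1.30. Of the 7 members among them, Ryr1, Jph1, Trdn, Asph and Cacna1s reached 2, and Ryr1, Cacna2d1, Jph1, Trdn and Asph had an interval above 1, with a median of 2.21. With single-base tags left out, 2 of 7 reached 2 (15.9% of all genes) and 3 of 7 had an interval above 1 (12.2%). These 3 were Jph1, Ryr1 and Trdn, so Cacna2d1 and Asph no longer had one. With tags of at least 2 reads 1 of the remaining 5 did both (19.9% and 10.9%). With both filters it was again 1 of 5 (16.3% and 6.64%), and this gene was Trdn. Without Trdn the summed intron ratio was 1.95 (1.58 to 2.42). For 3'UTR tags all 3 members with enough tags, Asph, Cacna2d1 and Casq1, reached 2 and had an interval above 1, where 86.6% and 77.7% of all genes did, and their median of 2.63 was below the 3.24 of all such genes. For coding exon tags Ryr1 was the single member with enough, at 1.97 with an interval that includes 1, where 83.7% of genes reached 2 and 78.2% had an interval above 1. The 3'UTR and coding counts are thus near or below their background.

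Intron tags of the members lay near exons more often than those of all genes. Within 500 nt of an annotated exon were 43 of 169 in WT (25.4%, 19.1 to 32.7) and 154 of 570 in Mbnl1 KO (27.02%, 23.4 to 30.9), beside 12.5% and 14.8% of the intron tags of all genes tested. The share was the same in both tables within counting error, and intron lengths were not compared between the lists. Antisense tags were 20.3% of those over the 10 genes in WT (63 tags, 15.9 to 25.2) and 8.13% in Mbnl1 KO (75 tags, 6.44 to 10.1). Single-base tags were rarer over these genes than in the tables, 8.47% in WT and 2.0% in Mbnl1 KO, and 43.95% and 36.3% of the tags rested on 1 read.

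Motifs were more frequent at the summed intron tags than along the introns. Of the intron tags, 36.7% in WT and 45.6% in Mbnl1 KO had at least 1 YGCY in the 30 bases around their middle, beside 22.8% of all intron windows. At least 2 were found at 16.6% in WT (11.3 to 23.0) and 19.5% in Mbnl1 KO (16.3 to 23.0), beside 3.27% of windows, and these intervals overlap. In exons the shares with at least 1 were 56.96% and 54.3%, beside 33.7%, and with at least 2 they were 13.9% (7.16 to 23.5) and 12.9% (9.24 to 17.5), beside 8.14%, which the WT interval includes. By gene, with both tables pooled, at least 2 motifs were found at 20.7% of Ryr1 tags (5.17% of all windows of the gene), 19.9% of Cacna2d1 tags (3.19%), 20.4% of Jph1 tags (2.95%) and 16.0% of Trdn tags (2.03%), against 6.86% of Casq1 tags (3.33%), many of which share 1 site. For at least 1 motif, Casq1 had the highest share of the 10 genes, 57.8% of its tags beside 25.9% of windows. Windows by gene cover exons and introns together, while 84.3% of Casq1 tags lay in its 3'UTR. Beside the exon windows of the 10 genes, with 33.7% for at least 1 and 8.14% for at least 2, the 6.86% of Casq1 was not higher. At Cacnb1, with 24 tags, the measures went opposite ways, with at least 1 motif at 25.0% of tags and in 36.5% of windows, and at least 2 at 16.7% and 8.29%. Overlapping tags share their sequence, so these shares describe tags and not independent sites.

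Other genes of excitation-contraction coupling were counted from a list of 38. Of these, 23 reached 20 tags, 11 were at least 2-fold higher in Mbnl1 KO and 11 had an interval above 1, 0 were at or below 0.5, 6 had a ratio below 1 and the median ratio was 1.98. That is 11 of 23, beside 41.6% and 38.6% of all genes. Cav3, Fkbp1b and Stac3, the adaptor needed for voltage-sensor function, had no tag. Srl (sarcalumenin, a reticulum calcium-binding protein) held 17 tags in WT and 102 in Mbnl1 KO (ratio 4.33, 2.57 to 7.71). Fkbp1a, which binds the release channel, held 24 and 97 (2.91, 1.85 to 4.77) and Slc8a3, a sodium-calcium exchanger, 15 and 69 (3.32, 1.88 to 6.24). The calcium pump Atp2a1 (117 and 393, 2.42) and the cytosolic buffer Pvalb (43 and 145, 2.43) had ratios close to the summed ratio of the triad genes. Among paralogues of the members in this list, the ratio was 0.689 (0.443 to 1.07) at Ryr3 (45 and 43), 0.735 (0.490 to 1.10) at Cacna2d3 (51 and 52) and 1.13 (0.728 to 1.78) at Cacna1c (35 and 55).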

How the data were processed

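The data are Mbnl2 HITS-CLIP tags of quadriceps, pooled by the authors from 3 mice into 1 table for each genotype. Raw reads had been filtered for quality and aligned to mm9 with BWA (version not given in the sources used here), short sequences and potential PCR duplicates had been removed, and the mice had been merged. The authors deposited, for every tag, a raw count of the reads behind it, with no scaling. Each row was used as 1 tag.

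Tags overlapping a gene of the GENCODE vM1 annotation (mm9) on its strand were counted with scipy 1.17.1, pandas 2.3.3 and numpy 2.4.6 in Python 3.11.15, assigned to the first class met in the order 3'UTR, coding exon, 5'UTR, other exon, intron, and divided by the tags of the table (343554 and 476543). Where tags were left out by reads, length or single-base content, or were collapsed, the divisor was the number of tags left in each table. Figures were drawn with matplotlib 3.10.9. Ratios have exact Clopper-Pearson intervals at 95%, and PCR reads are not independent molecules, so intervals and the limit for a count of 0 (3 tags) cover counting error only. Genes needed 20 tags over both tables. No p-value was computed. Counting and intervals were tested on simulated data.

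The 10 members were all named, with up to 8 genes of the pathway list with at least 50 tags and the 12 clusters of most tags. Further clusters and introns were named after their values were seen. Members, lists and rules were chosen with earlier results of these data known. Motif windows were read from the mm9 genome.

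Alternatives were raw tags, scaling to the median gene, single-base tags left out, tags collapsed by position or by 5′ end, tags of at least 2 reads, tags of at most 30 nt, counting by midpoint, leaving out tags shared with another gene, a fold of 1.5 and other tag minimums. Placing coding exons before 3'UTRs, leaving out Trdn, and the settings for single sites and for introns were added after the data were seen. The counts of 1 further marker list are not reported here.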

Additional observations from a re-analysis of the deposited data

How the results depend on the processing

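With 1 merged table per genotype, no replicate could be left out and no spread is known. No paired analysis was possible because the mice of each genotype are merged in 1 table. The summed ratio, the median ratio and the ratios of 3'UTR, coding exon and intron tags were above 1 in all settings run, but their size varied and some intervals came to include 1, among them those of the coding exon ratio for tags of at most 30 nt (0.656 to 2.38) and relative to the median gene (0.856 to 2.48). Raw tags gave a summed ratio of 3.42, a median of 3.27, a 3'UTR ratio of 3.60 and an intron ratio of 3.37. Scaling to the median gene gave 1.41 summed, a median of 1.35, 1 gene at least 2-fold higher, 2 with an interval above 1, and 1.49, 1.43 and 1.39 for 3'UTR, coding exon and intron tags. Leaving out single-base tags gave 1.80 summed, 3 genes at least 2-fold higher (29.1% of all genes), 6 of 9 with an interval above 1 (26.5%), and 1.77 for 3'UTR and 1.84 for intron tags. Collapsing tags of the same position gave 2.12 summed and collapsing by 5′ end alone 2.09. In both, 5 of 9 members had an interval above 1 (31.2% and 29.4% of all genes), and that of Jph1 included 1 (0.997 to 4.56 and 0.974 to 4.49). Keeping tags of at least 2 reads gave 1.45 summed, a median of 1.34, 1 of 7 genes at least 2-fold higher and 1 of 7 with an interval above 1 (Trdn, with 31.1% and 18.7% of all genes), and 1.27, 1.23 and 1.59 by class. With single-base tags also left out these were 1.24, 1.17, 1 and 1 of 7 (22.6% and 11.1%), and 1.06 (0.745 to 1.54), 1.03 (0.556 to 2.03) and 1.38. Tags of at most 30 nt gave 1.54 summed, 1 and 1 of 7 genes (19.95% and 16.1%), and 1.46, 1.23 and 1.60 by class. Without Trdn the intron ratio was 1.95. Asph reversed to 0.869, and its internal 3'UTR to 0.871, for tags of at least 2 reads with single-base tags left out. Jph2, whose interval included 1 with all tags, was at 0.640 for tags of at least 2 reads and 0.627 with both filters. These filters also lowered the divisors, and that of WT more. Tags of 1 read were 79.0% of all WT and 59.5% of all Mbnl1 KO tags, but 43.95% and 36.3% of the member tags. Single-base tags were 44.05% and 17.0% of all tags, but 8.47% and 2.0% of the member tags. Lower ratios under these filters therefore include the change of divisor, and other causes of these shifts were not tested. Cacnb1 had an interval below 1 for tags of at most 30 nt (0.297). Trdn kept a ratio of at least 2 and an interval above 1 in all of these settings. Counting by midpoint and leaving out tags in another gene of the same strand changed no count of members. At a fold of 1.5, 7 of 9 members were higher, beside 59.4% of all genes. Depth limits Cacna1s, Cacnb1, Jph2 and Casq2, and the windows at single exons.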
